A study of Mus musculus with 8 samples.

Results

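The cornified envelope and late differentiation genes are *Krtdap*, *Sbsn*, *Dmkn*, *Calm4*, *Sprr1a*, *Ivl*, *Lor*, *Tgm1*, *Tgm3* and *Asprv1*, 10 of the 19591 genes that the tables of this study list. They were looked up by symbol in mouse back skin epidermis, in bulk populations sorted for *Troy* and in single cells, and their use was separated between cells with *Krt10*, a keratin of the differentiating interfollicular epidermis (IFE), and cells with *Krt79*, a keratin of the upper hair follicle. All animals carried the *Troy*-EGFP-IRES-CreERT2 allele on a C57BL/6 background, in which a cassette of EGFP and tamoxifen-inducible Cre replaces the coding region of *Troy* (*Tnfrsf19*), so that EGFP stands in for *Troy* and no wild-type mouse was among them. They were adults with hair follicles in the resting phase, telogen. The bulk libraries came from 2 mice, each giving viable (DAPI-) cells, ITGA6bright EGFP+ cells and ITGA6bright EGFP- cells, where bright ITGA6 marks the basal layer. The single cells were sorted into 6 plates of 384 wells, each plate from another mouse. The 4 *Troy*-EGFP plates held ITGA6-, ITGA6bright EGFP- and ITGA6bright EGFP+ cells of untreated mice. The 2 traced plates held cells of mice double homozygous for the *Troy* allele and *Rosa26*-LSL-tdTomato, given tamoxifen 7 days before and sorted by ITGA6, EGFP and tdTomato. The labels do not say which well came from which gate, and the gates set how many wells of each kind a plate holds. In the study, ITGA6- cells fell mainly into an upper follicle cluster, and ITGA6bright EGFP+ cells into clusters marked by *Krt14* and *Krt1*. Cells with *Krt10* and cells with *Krt79* may thus differ in layer and gate as well as in their part of the epidermis. These cannot be told apart here.

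The epidermis renews itself from a basal layer of keratinocytes, which leave that layer, build a network of new keratins and desmosomes and end as dead, flattened cornified cells. In that last step a shell of crosslinked protein, the cornified envelope, replaces the plasma membrane. Involucrin (*Ivl*), loricrin (*Lor*) and the small proline-rich proteins such as *Sprr1a* are its building blocks, and the transglutaminases *Tgm1* and *Tgm3* join them. *Krtdap* (keratinocyte differentiation-associated protein), *Sbsn* (suprabasin) and *Dmkn* (dermokine) encode secreted proteins of the suprabasal layers and lie side by side on chromosome 7, between bases 30732674 and 30791089 of GRCm38.p6. *Calm4* encodes a calcium-binding protein of the calmodulin family found in differentiating skin, and *Asprv1* a protease that processes filaggrin. *Lor*, *Sprr1a* and *Ivl* lie on chromosome 3 between bases 92080271 and 92573790, in the epidermal differentiation complex.

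The 150 bases before the RefSeq start (GRCm38.p6) are shown for 6 of the genes, because they differ in where they were highest below: *Krtdap* and *Calm4* in cells with *Krt10*, *Sprr1a* and *Ivl* in cells with *Krt79*, and *Tgm3* with most of its transcripts in basal cells. *Dmkn*, which did not pass between the keratins, is shown as the neighbour of *Krtdap*. Capitals mark TGANTCA, the site that AP-1 factors bind, and TATAAA, the TATA box.
Krtdap, chr7:30787755-30787904, plus strand: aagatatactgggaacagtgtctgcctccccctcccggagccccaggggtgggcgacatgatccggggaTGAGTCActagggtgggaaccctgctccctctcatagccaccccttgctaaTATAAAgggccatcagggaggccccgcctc
Dmkn, chr7:30763606-30763755, plus strand: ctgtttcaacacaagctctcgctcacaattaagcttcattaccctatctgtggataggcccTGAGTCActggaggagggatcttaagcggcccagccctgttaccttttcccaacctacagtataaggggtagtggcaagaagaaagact
Calm4, chr13:3837607-3837756, plus strand: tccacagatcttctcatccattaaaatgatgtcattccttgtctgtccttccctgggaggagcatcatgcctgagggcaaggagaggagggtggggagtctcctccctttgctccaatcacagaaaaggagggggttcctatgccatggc
Sprr1a, chr3:92485882-92486031, minus strand: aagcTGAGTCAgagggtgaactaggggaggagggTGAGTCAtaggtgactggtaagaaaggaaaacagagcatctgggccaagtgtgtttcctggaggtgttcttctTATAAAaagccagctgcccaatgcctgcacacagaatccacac
Ivl, chr3:92573736-92573885, minus strand: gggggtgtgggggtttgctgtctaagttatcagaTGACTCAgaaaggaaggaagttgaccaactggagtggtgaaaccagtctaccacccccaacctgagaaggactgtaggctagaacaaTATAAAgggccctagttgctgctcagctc
Tgm3, chr2:130012190-130012339, plus strand: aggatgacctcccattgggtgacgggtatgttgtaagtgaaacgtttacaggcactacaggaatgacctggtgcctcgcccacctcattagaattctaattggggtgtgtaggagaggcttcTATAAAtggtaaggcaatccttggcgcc
In the 250 bases before the start, TGANTCA, which reads the same on both strands, was present in 6 of the 10 genes (*Krtdap*, *Sbsn*, *Dmkn*, *Sprr1a*, *Ivl* and *Lor*) and in 6.75% of all 32851 promoters, or 7.82% of the 27025 genes they belong to. TATAAA, searched on the strand of the gene, was present in 5 of the 10 (*Krtdap*, *Sprr1a*, *Ivl*, *Lor* and *Tgm3*) and in 7.59% of all promoters, or 8.94% of genes. *Sprr1a* held TGANTCA at 2 places, 146 and 116 bases before the start. The letters did not separate the genes by keratin, since *Krtdap* and *Sprr1a* both had both motifs.

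The bulk libraries held between 157537 and 453005 counts. Of the 2304 wells, 1109 had at least 1000 transcripts without spike-ins and mitochondrial genes and were kept, between 71 and 262 per mouse. *Troy*-EGFP mouse 1 stood apart with 71 kept wells, 55 of them of no class, and a median of 440 genes against 1004 to 1344 in the other mice. It entered the tests only in the alternative with sums of at least 5 wells. *Tnfrsf19* was at 110 and 72.2 CPM (counts scaled to a common library total, with TMM factors) in the EGFP+ libraries of mouse 1 and mouse 2 and at 22.6 and 35 in the EGFP- libraries. The transcripts of *Kcnq1ot1* and *Mir1950*, which the study used to mark necrotic cells, came to 6261 to 51827 CPM in the basal, Krt10-only and Krt79-only wells of the *Troy*-EGFP mice and to 655 to 2012 in those of the traced mice, and no well was removed for them here.

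Each kept well was placed by 3 keratins that are not among the 10 genes. After wells with T cell or Langerhans cell transcripts were set aside, a well counted as high for a keratin with at least 3 of its transcripts and at least 20 per 10000 transcripts of the well. This gave 157 Krt10-only wells, 101 Krt79-only wells, 5 wells with both, 421 basal wells (high for *Krt14* alone), 69 T cell wells, 51 Langerhans cell wells and 305 others. Few wells lay just under the cut of *Krt10* and *Krt79*, with 21 wells between 10 and 20 per 10000 of *Krt10* against 162 above the cut, and 20 against 106 for *Krt79*. *Krt14* was graded, with 84 wells between 10 and 20 and 143 between 20 and 40 of 486 above the cut, so that the edge of the basal class is less sharp. *Krt1*, the partner keratin of *Krt10*, was found in 93.0% of Krt10-only wells and 4.95% of Krt79-only wells. *Krt17* and *Cst6*, known from the upper follicle, were found in 88.1% and 87.1% of Krt79-only wells and in 12.1% and 35% of Krt10-only wells. *Krt14* was at a median of 62.7 per 10000 in basal wells, 9.76 in Krt79-only wells and 0 in Krt10-only wells.

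Transcripts were summed over the wells of a class in each mouse, and sums of at least 10 wells were kept: 5 mice for basal and Krt10-only wells, 4 for Krt79-only wells. Levels are CPM after TMM scaling, where the count is of transcripts. One transcript gives a single 3′ tag, so a level carries no gene length, and genes are compared with themselves across classes.

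Between Krt10-only and Krt79-only wells, 4 of the 10 genes differed. *Krtdap* and *Calm4* were higher with *Krt10*, *Sprr1a* and *Ivl* were higher with *Krt79*, and *Sbsn*, *Dmkn* and *Tgm3* did not pass the test. Of the 7 genes with enough transcripts to be tested, 4 passed an adjusted p of 0.05 between Krt79-only and Krt10-only wells (the quasi-likelihood F test of edgeR, adjusted by Benjamini-Hochberg over all 3518 genes), 2 higher and 2 lower. Of all genes 11.6% passed, 6.25% higher and 5.34% lower. *Ivl* and *Sprr1a* met the filter on low counts only through their Krt79-only sums, and *Tgm3* only through basal and Krt10-only sums together, so that these 3 could be tested only where they differed and the count of 4 is no support for the genes as a group. *Krtdap*, *Calm4*, *Sbsn* and *Dmkn* met the filter without any 1 class. When a block for the mouse paired the classes of each animal, *Dmkn* and *Tgm3* passed as well, 785 of 4663 genes in all.

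**Figure D1:**
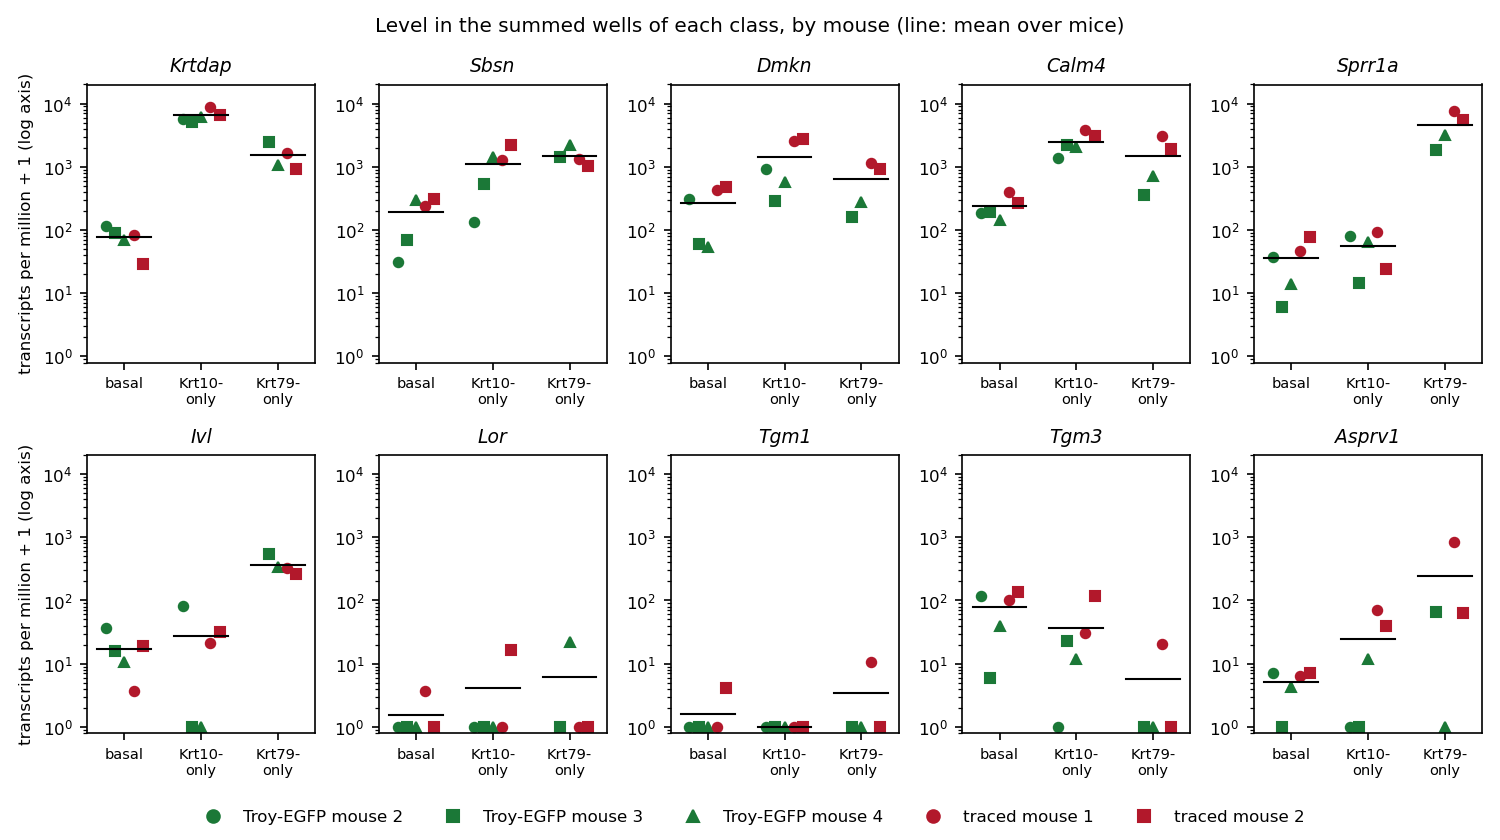
Level of each gene (CPM + 1, log axis) in the summed basal, Krt10-only and Krt79-only wells, with 1 point per mouse and a line at the mean over mice. *Sprr1a* and *Ivl* stand higher in the 4 Krt79-only sums than in any Krt10-only sum, *Krtdap* stands lower in them, and *Lor* and *Tgm1* are at 0 in most sums.

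*Sprr1a*, an envelope precursor, was at 1830 and 3221 CPM in the Krt79-only wells of *Troy*-EGFP mice 3 and 4 and at 7564 and 5532 in those of traced mice 1 and 2. In the Krt10-only wells it was at 79.8, 13.4 and 64.5 CPM in *Troy*-EGFP mice 2, 3 and 4 and at 90.4 and 23.4 in traced mice 1 and 2. The lowest Krt79-only sum was thus far above the highest Krt10-only sum. The difference was 6.31 ± 0.49 on the log2 scale (SE, adjusted p = 1.44e-07 by edgeR), and it passed under all 17 alternatives. Against basal wells, at 4.96 to 76.2 CPM, *Sprr1a* was higher in Krt79-only wells by 6.90 ± 0.48 (adjusted p = 5.41e-08), whereas Krt10-only wells differed from basal wells by 0.59 ± 0.52 (adjusted p = 0.583 by edgeR). The sum of only 9 Krt79-only wells of *Troy*-EGFP mouse 2, which was not tested, held *Sprr1a* at 7525 CPM without TMM scaling.

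*Ivl*, the involucrin gene, followed *Sprr1a* at a lower count. Krt79-only wells held 546 and 335 CPM in *Troy*-EGFP mice 3 and 4 and 326 and 261 in traced mice 1 and 2. Krt10-only wells held 79.8 CPM in *Troy*-EGFP mouse 2, 0 in *Troy*-EGFP mice 3 and 4, and 20.1 and 31.2 in the traced mice. The groups did not overlap, and the log2 difference was 4.55 ± 0.70 (adjusted p = 0.000223 by edgeR). The tested sums held 92 against 9 transcripts, a 25.5-fold ratio of the pooled classes (95% counting interval 12.8 to 57.5). Basal wells stood at 2.67 to 36.3 CPM, and Krt10-only wells differed from them by 0.02 ± 1.09 on the log2 scale (adjusted p = 0.997 by edgeR).

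Of the 2 genes that passed on the side of *Krt10*, *Krtdap* differed more than *Calm4*. It was at 5746, 5048 and 6074 CPM in the Krt10-only wells of *Troy*-EGFP mice 2, 3 and 4 and at 8896 and 6605 in those of traced mice 1 and 2. Krt79-only wells held 2440 and 1067 CPM in *Troy*-EGFP mice 3 and 4 and 1641 and 929 in the traced mice. All 4 lay under the lowest tested Krt10-only sum, and the log2 difference was -2.11 ± 0.34 (adjusted p = 0.000313 by edgeR). The 8 Krt10-only wells of *Troy*-EGFP mouse 1, under the minimum of 10, held less *Krtdap* without scaling than any of the 4 Krt79-only sums. In *Troy*-EGFP mice alone the difference was -1.78 (adjusted p = 0.058), and with sums of at least 5 wells it was -1.40 (adjusted p = 0.0776 by edgeR). That setting added the 9 Krt79-only wells of *Troy*-EGFP mouse 2, which held *Krtdap* at 4384 CPM without scaling. It also added the 8 Krt10-only and 8 basal wells of *Troy*-EGFP mouse 1. *Krtdap* was no gene of *Krt10* cells alone: basal wells held 27.4 to 115 CPM, so that Krt79-only wells were higher than basal wells by 4.33 ± 0.37 and Krt10-only wells by 6.44 ± 0.38, with adjusted p = 3.24e-07 and 4.63e-09 by edgeR and no overlap in either.

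*Calm4* was at 1383, 2186 and 2059 CPM in the Krt10-only wells of *Troy*-EGFP mice 2, 3 and 4 and at 3795 and 3038 in the traced mice. Krt79-only wells held 353 and 711 CPM in *Troy*-EGFP mice 3 and 4 and 3014 and 1889 in the traced mice. The groups overlapped. Within each mouse with a tested Krt79-only sum, this sum was the lower. It was so by 2.6 and 1.52 on the log2 scale in *Troy*-EGFP mice 3 and 4, and by 0.33 and 0.68 in the traced mice. The 9 Krt79-only wells of *Troy*-EGFP mouse 2, under the minimum of 10, went the other way without TMM scaling. The fitted difference was -1.07 ± 0.31 (adjusted p = 0.0278 by edgeR). It was lost without *Troy*-EGFP mouse 3 (-0.77, adjusted p = 0.135) and without *Troy*-EGFP mouse 4 (-0.97, adjusted p = 0.186 by edgeR). With sums of at least 5 wells it was -0.42 (adjusted p = 0.549 by edgeR). That setting added the 9 Krt79-only wells of *Troy*-EGFP mouse 2 and also the Krt10-only and basal wells of *Troy*-EGFP mouse 1. Both classes were above basal wells, at 143 to 392 CPM, by 3.42 ± 0.30 for Krt10-only wells (adjusted p = 5.67e-07) and by 2.36 ± 0.31 for Krt79-only wells (adjusted p = 3.84e-05 by edgeR).

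*Dmkn*, next to *Krtdap* on the chromosome, was at 904, 285 and 581 CPM in the Krt10-only wells of *Troy*-EGFP mice 2, 3 and 4 and at 2580 and 2781 in the traced mice. Krt79-only wells held 161 and 272 CPM in *Troy*-EGFP mice 3 and 4 and 1152 and 929 in the traced mice. The Krt79-only sum was the lower in each of the 4 mice with a tested Krt79-only sum, by 0.79 to 1.57 on the log2 scale. The 9 Krt79-only wells of *Troy*-EGFP mouse 2, under the minimum of 10, went the other way without TMM scaling. Without pairing the difference was -1.31 ± 0.44 (adjusted p = 0.0652), and with the mouse as a block it was -1.25 ± 0.22 (adjusted p = 2.62e-06 by edgeR). It also passed without *Troy*-EGFP mouse 2 (adjusted p = 3.19e-05 by edgeR). Krt10-only wells were above basal wells by 2.29 ± 0.41 (adjusted p = 0.000657), and Krt79-only wells by 0.97 ± 0.45 (adjusted p = 0.165, and 5.12e-06 with the block, by edgeR).

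*Sbsn*, the third gene of that cluster, was used by both classes. It was at 133, 534 and 1441 CPM in the Krt10-only wells of *Troy*-EGFP mice 2, 3 and 4 and at 1285 and 2228 in the traced mice. Krt79-only wells held 1445 and 2175 CPM in *Troy*-EGFP mice 3 and 4 and 1334 and 1033 in the traced mice. The log2 difference between the classes was 0.48 ± 0.56 (adjusted p = 0.691 by edgeR) and ran from 1.42 in *Troy*-EGFP mouse 3 to -1.10 in traced mouse 2. Against basal wells, at 30.2 to 305 CPM, *Sbsn* was higher in Krt10-only wells by 2.53 ± 0.55 (adjusted p = 0.00346) and in Krt79-only wells by 3.01 ± 0.58 (adjusted p = 0.00129 by edgeR).

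*Tgm3*, a crosslinking enzyme of skin and hair, had most of its transcripts in basal wells, but the test separated these from Krt79-only wells and not from Krt10-only wells. Basal wells held 115, 4.96 and 38.9 CPM in *Troy*-EGFP mice 2, 3 and 4 and 101 and 134 in the traced mice. Krt10-only wells held 0, 22.3, 10.8, 30.1 and 117 CPM in the same order, and Krt79-only wells held 0 in 3 of 4 sums and 19.2 CPM in traced mouse 1. *Troy*-EGFP mouse 3 thus had less in basal than in Krt10-only wells. Krt10-only wells differed from basal wells by -1.11 ± 0.62 on the log2 scale (adjusted p = 0.313 by edgeR), which passed under none of 15 alternatives. Krt79-only wells were below basal wells, with a log2 fold change of -3.83 ± 1.08 (adjusted p = 0.0183 by edgeR). The pooled classes held 2 against 114 transcripts, an 11.7-fold lower level (95% counting interval 3.15 to 97.4). Leaving out *Troy*-EGFP mouse 4, traced mouse 1 or traced mouse 2 gave adjusted p values of 0.0639, 0.0538 and 0.159 by edgeR. Without traced mouse 1 all Krt79-only sums are at 0. Krt79-only wells differed from Krt10-only wells by -2.72 ± 1.19 (adjusted p = 0.172, and 0.0311 with the block, by edgeR), and it passed without *Troy*-EGFP mouse 2 (adjusted p = 0.0212 by edgeR).

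Between Krt10-only and basal wells, 4 of the 7 genes tested rose (*Krtdap*, *Calm4*, *Dmkn* and *Sbsn*) where 14.3% of all genes passed in either direction and 6.68% rose. *Krtdap* and *Calm4* did so without overlap between mice. Between Krt79-only and basal wells, 5 of the 7 rose (*Sprr1a*, *Ivl*, *Krtdap*, *Sbsn* and *Calm4*) and *Tgm3* fell, where 17.1% of all genes passed, 8.75% higher and 8.36% lower. *Sprr1a*, *Ivl*, *Krtdap* and *Sbsn* did not overlap between these classes. How many of all genes do not overlap was not counted in either comparison, so that these are descriptions of single genes. Of the 4 genes that met the filter without any 1 class, 4 rose in the first comparison and 3 in the second.

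**Figure D2:**
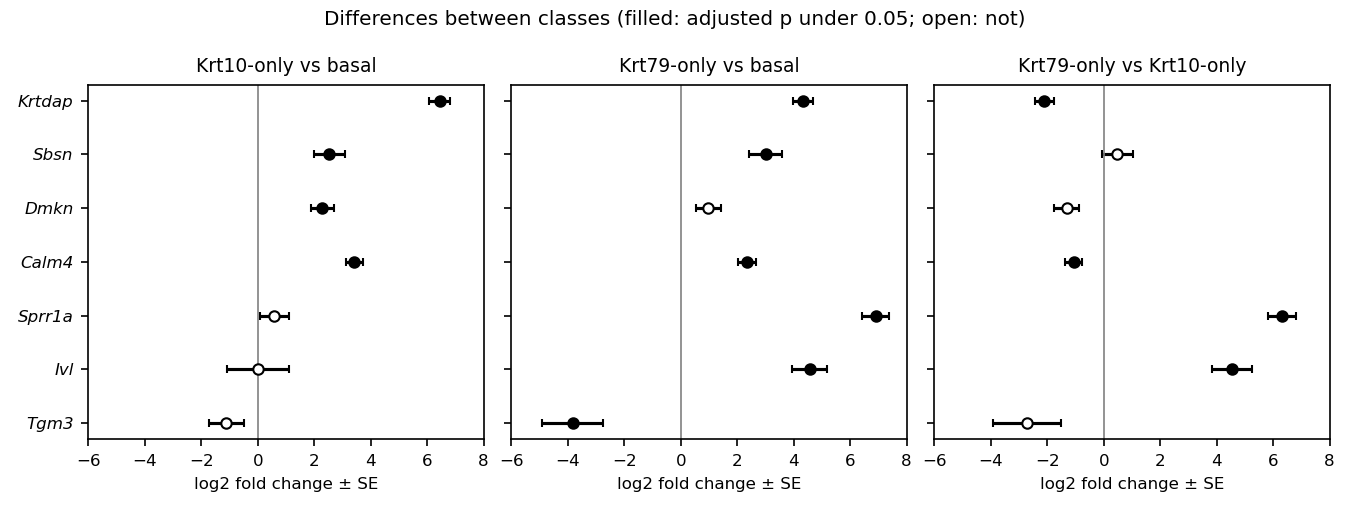
Log2 fold change with its standard error for the 7 genes tested, in 3 comparisons of classes (filled, adjusted p under 0.05). *Sprr1a* and *Ivl* lie at 6.90 and 4.56 in Krt79-only against basal wells and near 0 in Krt10-only against basal wells, *Krtdap* is above 4 in both, and *Tgm3* is below 0 in all 3.

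Markers of other cell types were read in the same sums, without TMM scaling. The 6 T cell markers summed to 0 to 25.4 CPM in basal, Krt10-only and Krt79-only wells of any mouse. The 5 Langerhans cell markers summed to 0 to 714 CPM, the highest in the Krt79-only wells of *Troy*-EGFP mouse 4. The 3 sebaceous gland markers summed to 135 to 504 CPM. The 4 lower follicle markers summed to 34.6 to 211 CPM in Krt10-only, 338 to 664 in Krt79-only and 1082 to 2264 in basal wells. *Kcnq1ot1* and *Mir1950* together were higher in Krt79-only than in Krt10-only wells of 4 mice and lower in *Troy*-EGFP mouse 3. The part of these in the differences was not tested.

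Well by well, the same order held. A transcript of *Krtdap* was found in 120 of 157 Krt10-only wells (76.4%, exact 95% binomial interval 69.0 to 82.8) and in 45 of 101 Krt79-only wells (44.6%, 34.7 to 54.8). *Sprr1a* was found in 16 of 157 Krt10-only wells (10.2%, 5.94 to 16) and in 70 of 101 Krt79-only wells (69.3%, 59.3 to 78.1). The median depth was 4721 transcripts in Krt10-only and 3034 in Krt79-only wells, so each well was also thinned to 1000 transcripts, and T cell and Langerhans cell wells, 2 classes that should lack these genes, were read as a background. The intervals cover counting error only, and wells of a mouse are not replicates.

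After thinning, *Krtdap* was found in 67.5% of Krt10-only, 37.6% of Krt79-only, 5.23% of basal and 7.25% of T cell wells. Langerhans cell wells held it in 7.84%, and the basal share was not above either background. *Calm4* was found in 65.6%, 40.6%, 15.7% and 1.45% of the same classes, and *Dmkn* in 41.4%, 32.7%, 15.7% and 2.90%, with 3.92% and 9.80% of Langerhans cell wells. *Sbsn* ran the other way, with 28.7% of Krt10-only and 42.6% of Krt79-only wells, although its summed level did not pass the test. *Sprr1a* was found in 5.10% of Krt10-only, 58.4% of Krt79-only, 2.61% of basal and 2.90% of T cell wells, and in 0 of 51 Langerhans cell wells, which allows up to 5.88% when 3 wells are taken as the floor. The basal share was within the interval of the T cell wells (0.353 to 10.1), as was that of Krt10-only wells. *Ivl* was found in 1.27% and 16.8% of Krt10-only and Krt79-only wells and in 0 of 69 T cell wells, which allows a share of up to 4.35% by the same floor. *Tgm3* was found in 5.46% of basal wells and in 0 of 101 Krt79-only wells, which allows up to 2.97% by the same floor.

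**Figure D3:**
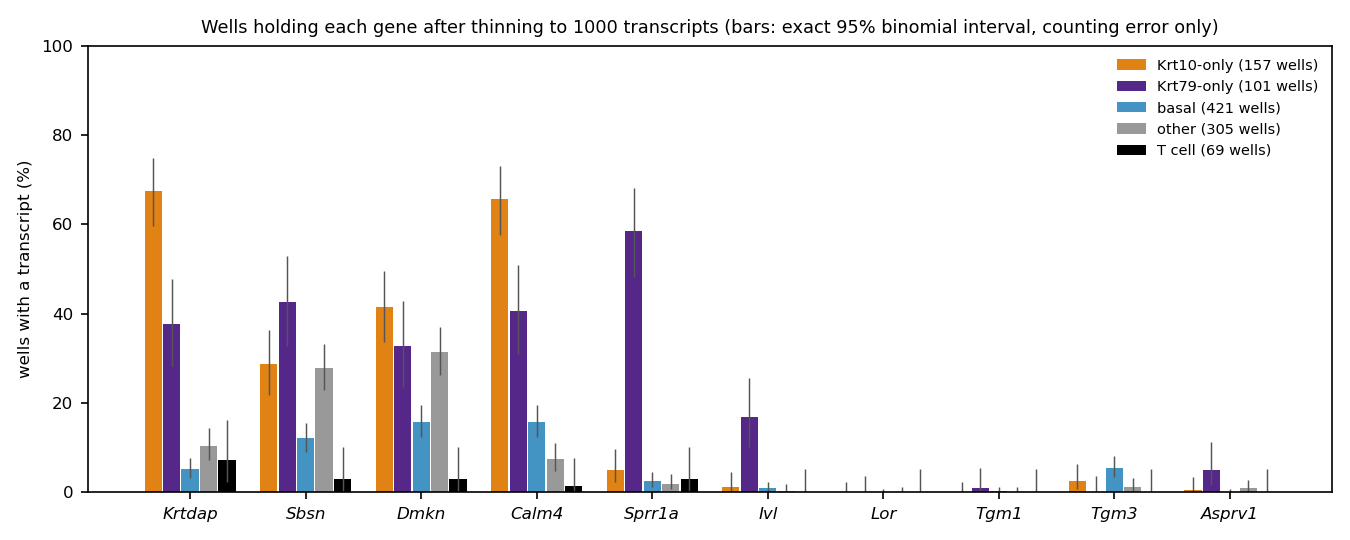
Share of wells (%) that hold each gene after every well was thinned to 1000 transcripts, by class, with exact 95% binomial intervals for counting error. *Krtdap* and *Calm4* are highest in Krt10-only wells, *Sprr1a* and *Ivl* in Krt79-only wells, and T cell wells lie at 7.25% or less for each gene.

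The place of the transcripts can be read against the share of all transcripts in each class, 41.1% in basal, 21.3% in Krt10-only and 8.99% in Krt79-only wells. Of 5130 transcripts of *Krtdap* in kept wells, 82.5% were in Krt10-only wells and 10.1% in Krt79-only wells. Of 1861 transcripts of *Sprr1a*, 94.1% were in Krt79-only wells, and of 130 transcripts of *Ivl*, 76.2%. Of 149 transcripts of *Tgm3*, 77.2% were in basal wells. Some wells weighed heavily: a single Krt79-only well held 282 of 1751 transcripts of *Sprr1a*, and single Krt10-only wells held 191 of 809 transcripts of *Sbsn* and 204 of 841 of *Dmkn*.

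*Asprv1* had too few transcripts to be tested after the filter on low counts. It was at 64.2 and 0 CPM in the Krt79-only wells of *Troy*-EGFP mice 3 and 4 and at 835 and 62.6 in traced mice 1 and 2. Krt10-only wells held 0, 0, 10.8, 70.3 and 38.9 CPM, and basal wells 0 to 6.10. The highest sum rested on a well of traced mouse 1 with 47.3 of the 104 transcripts of *Asprv1* in Krt79-only wells. It was found in 16 of 101 Krt79-only wells (15.8%) and in 9 of 157 Krt10-only wells (5.73%), and after thinning in 4.95% and 0.637%. Without the filter it passed between these classes, at 2.91 ± 0.60 (adjusted p = 9.83e-05 by edgeR).

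The wells were also binned along each keratin, without those of immune cells and those above the cut for the other keratin, which left 883 wells along *Krt10* and 827 along *Krt79*, each thinned to 1000 transcripts. Along *Krt10*, *Krtdap* was found in 6.33% of wells without *Krt10*, in 20% at 10 to 20 per 10000 of *Krt10*, in 50% at 50 to 100 and in 88.5% at 200 or more. *Calm4* was found in 10.5%, 40%, 52.5% and 73.1% of the same wells. *Sbsn* did not rise steadily, at 19.2% of wells without *Krt10*, 5.00% at 20 to 50, 10% at 50 to 100, 35.2% at 100 to 200 and 57.7% at 200 or more. *Dmkn* went from 23.9% without *Krt10* to 13.3% at 10 to 20, 52.1% at 100 to 200 and 38.5% at 200 or more. *Sprr1a* was found in 2.11% to 13.3% of the wells of each bin, which leave out the Krt79-only wells that hold most of its transcripts.

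Along *Krt79*, *Sprr1a* was found in 2.01% of wells without it, in 15% at 10 to 20 per 10000, in 41.4% at 50 to 100 and in 95.7% of the 23 wells at 200 or more. *Ivl* was found in 0.336%, 10%, 10.3% and 26.1% of these wells. *Krtdap* was found in 7.55%, 5.00%, 24.1% and 69.6% of them, with the Krt10-only wells left out. These shares pool the wells of 3 to 6 mice, the bins at 10 to 20 per 10000 hold 15 wells of *Krt10* and 20 of *Krt79*, and no test was made.

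**Figure D4:**
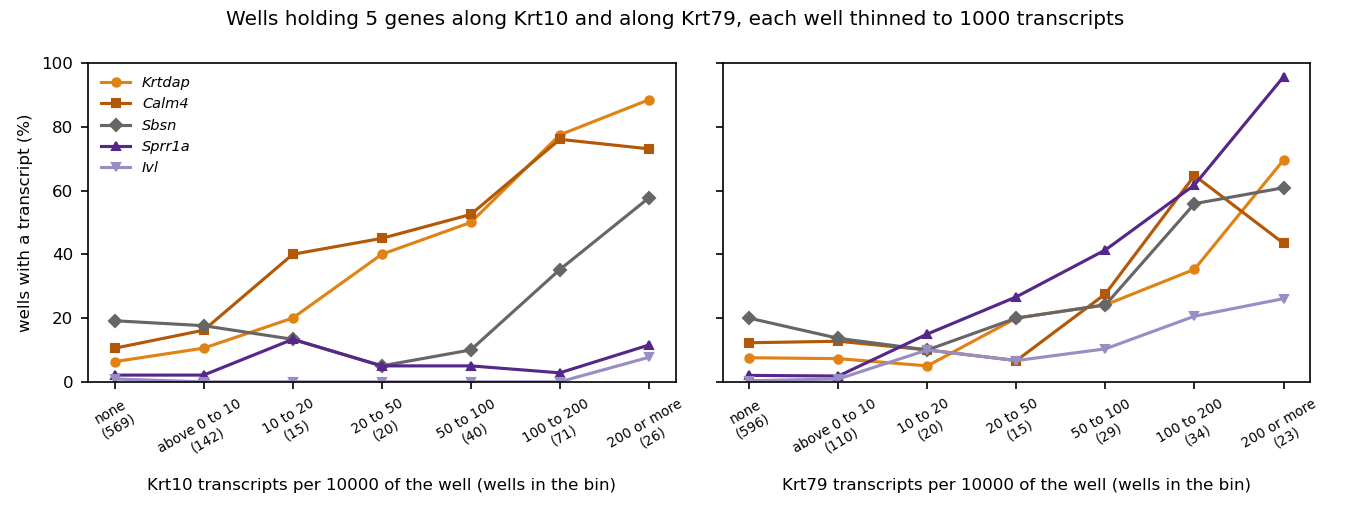
Share of wells (%) with each of 5 genes, after thinning to 1000 transcripts, in bins of *Krt10* (left, without wells high for *Krt79*) and *Krt79* (right, without wells high for *Krt10*) per 10000 transcripts of the well, with the wells of each bin in brackets. *Krtdap* climbs along *Krt10* to 88.5%, *Sbsn* falls to 5.00% before it climbs, and *Sprr1a* climbs along *Krt79* to 95.7%.

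Within a class some pairs of genes were met in the same wells and others apart. Of the 35 Krt79-only wells with *Ivl*, 91.4% also held *Sprr1a*, against 57.6% of those without *Ivl*. Of the 120 Krt10-only wells with *Krtdap*, 92.5% also held *Calm4* and 62.5% *Sbsn*, against 67.6% and 16.2% of those without. In basal wells *Calm4* was found in 17.9% of the wells with *Sbsn* against 37.7% of those without. *Krtdap* was found in only 4 of the 49 basal wells with *Tgm3* (8.16%) against 15.3% of those without. Deeper wells hold more of any gene, so these shares also follow depth. Over the 14 sums of 5 mice, log2 levels of *Sprr1a* and *Ivl* correlated by 0.88, those of *Krtdap* and *Calm4* by 0.85, and those of *Krtdap* and *Sprr1a* by 0.22 (Pearson), where the sums of a mouse share a plate and those of a class share the cut. *Tgm3* correlated by -0.54 with *Ivl* and by -0.41 with *Krtdap*. Among genes that are not of the 10, *Susd2* (0.94), *Pgs1* (0.91), *Gpr115* (0.91), *Hebp2* (0.90) and *Skint10* (0.89) were most like the mean of the 7 tested genes over these 14 sums.

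*Sbsn* and *Dmkn* were also found outside the keratin classes. Of the transcripts of *Sbsn* and *Dmkn*, 22.2% and 25.4% lay in the 305 wells of no class, against 3.26% of *Krtdap* and 0.914% of *Sprr1a*. Of all transcripts 19.7% lay there, so that the shares of *Sbsn* and *Dmkn* were close to that of transcripts as a whole. These wells were split, after the data had been seen, by 3 or more transcripts of the lower follicle markers *Cd34*, *Postn*, *Lhx2* and *Sostdc1*. Wells with them held *Sbsn* at 160 to 1079 CPM and *Dmkn* at 274 to 1762 CPM over the 6 mice, without TMM scaling. In the traced mice, *Dmkn* was at 1380 and 1762 CPM in these wells and at 288 and 218 in the rest. *Calm4* was at 41.8 to 213 CPM in the same wells with lower follicle markers.

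*Lor* and *Tgm1* were hardly seen in the single cells. *Lor* gave 5 transcripts in 4 of 1109 kept wells, of which 1 was a basal, 1 a Krt10-only, 1 a Krt79-only and 1 another well. In bulk it gave 87 counts over the 6 libraries. *Tgm1*, a transglutaminase anchored in the membrane, gave 2 transcripts, 1 in a basal and 1 in a Krt79-only well, and no count in bulk.

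Between the experiments, *Dmkn*, *Calm4* and *Sprr1a* were higher in the traced than in the *Troy*-EGFP mice over all class sums, and with 1 sum per mouse they passed in Krt79-only wells (2 mice against 2) and not in the other classes in which they were tested, where fewer genes of any kind passed. This comparison was added after the data had been seen, and it takes all classes together, as the experiment term of the same fit. The experiments also differ in genotype (double homozygous for the *Troy* allele and the reporter), tamoxifen, gates and plates. Sex may differ as well, since the study took males alone for the traced mice and both sexes elsewhere. These cannot be told apart. The 14 sums, taken as independent in the fit, come from 3 *Troy*-EGFP and 2 traced mice, so that each class was also fitted alone, with 1 sum per mouse. Of all genes, 14.8% then passed in Krt79-only wells (221 of 1490), 1.45% in Krt10-only wells and 0.405% in basal wells, and differences between the classes were not tested. *Dmkn* was at 59.5 and 51.9 CPM in the basal wells of *Troy*-EGFP mice 3 and 4, at 308 in *Troy*-EGFP mouse 2, and at 425 and 479 in the traced mice. Averaged over mice, *Dmkn* was at 590 against 2680 CPM in Krt10-only wells and at 216 against 1040 in Krt79-only wells, and in each class the traced mice were above every *Troy*-EGFP mouse with a tested sum. The 9 untested Krt79-only wells of *Troy*-EGFP mouse 2, however, held *Dmkn* at 1119 CPM without scaling, among the traced values. The difference over all sums was 2.06 ± 0.34 on the log2 scale (adjusted p = 0.000493), and 1.69 with sums of at least 5 wells (adjusted p = 0.00332 by edgeR). That setting added those 9 wells and also the Krt10-only and basal wells of *Troy*-EGFP mouse 1. With 1 sum per mouse it was 2.18 in Krt79-only wells (adjusted p = 0.000222), which leave out those 9 wells, 2.23 in Krt10-only wells (adjusted p = 0.059) and 1.77 in basal wells (adjusted p = 0.261 by edgeR).

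*Calm4* averaged 1876 against 3416 CPM in Krt10-only wells and 532 against 2452 in Krt79-only wells, and differed by 1.24 ± 0.24 (adjusted p = 0.00156 by edgeR). The 9 Krt79-only wells of *Troy*-EGFP mouse 2, which are not in that average, held *Calm4* at 2589 CPM without scaling, near the traced mice. With sums of at least 5 wells, which add these wells and the Krt10-only and basal wells of *Troy*-EGFP mouse 1, the difference was 0.99 (adjusted p = 0.0247 by edgeR). With 1 sum per mouse *Calm4* differed by 2.13 in Krt79-only wells (adjusted p = 5.48e-05), by 0.84 in Krt10-only wells (adjusted p = 0.211) and by 0.97 in basal wells (adjusted p = 0.216 by edgeR). *Sprr1a* averaged 2526 against 6548 CPM in Krt79-only wells and differed by 1.24 ± 0.38 (adjusted p = 0.0266), a call that was lost without *Troy*-EGFP mouse 3 (0.78, adjusted p = 0.208) and without traced mouse 1 (1.12, adjusted p = 0.21 by edgeR). It was also lost with sums of at least 5 wells (0.87, adjusted p = 0.147), after thinning (adjusted p = 0.109) and with the cut at 10 per 10000 (adjusted p = 0.112 by edgeR). The sums of at least 5 wells add the 9 Krt79-only wells of *Troy*-EGFP mouse 2, which held *Sprr1a* at 7525 CPM without scaling, as high as the traced mice. They also add the Krt10-only and basal wells of *Troy*-EGFP mouse 1. With 1 sum per mouse *Sprr1a* differed by 1.34 in Krt79-only wells (adjusted p = 0.00535) and by 1.85 in basal wells (adjusted p = 0.241 by edgeR). In Krt10-only wells it could not be tested with 1 sum per mouse, and averaged 52.6 CPM in the *Troy*-EGFP and 56.9 in the traced mice. *Tgm3* differed by 1.61 ± 0.58 (adjusted p = 0.0578) and passed without *Troy*-EGFP mouse 2 (2.24, adjusted p = 0.000244 by edgeR). *Krtdap*, *Sbsn* and *Ivl* differed by -0.13 ± 0.27, 0.62 ± 0.45 and -0.27 ± 0.57, with adjusted p values of 0.772, 0.354 and 0.776 by edgeR. *Sbsn* passed without *Troy*-EGFP mouse 4 (1.57, adjusted p = 0.0411 by edgeR). The 3 of 7 genes that passed, all higher, stand beside 20.7% of all genes, 11.7% higher and 9.01% lower. *Kcnq1ot1* and *Mir1950* moved with the experiments, by the values given above, and their part was not tested.

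Whether the split between the keratins itself differed between the experiments was tested as an interaction. No gene passed among the 4663 tested by edgeR (0% of all genes), with 208 at an unadjusted p under 0.05. DESeq2 gave 0 of 16295 with 209 unadjusted, and edgeR with the mouse as a block gave 4, none of them among the 10. *Calm4* came nearest by the unadjusted value. Its split was smaller in the traced mice by 1.38 ± 0.56 on the log2 scale (adjusted p = 0.9999, and 0.0753 with the block, by edgeR), where the median of all genes was 0.23. *Sbsn* differed by -1.79 ± 1.08 (adjusted p = 0.9999, and 0.0699 with the block, by edgeR).

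In the bulk populations, *Calm4* and *Tgm3* were higher in ITGA6bright EGFP+ than in ITGA6bright EGFP- basal cells, the comparison that asks what *Troy*-expressing basal cells hold. They were 2 of the 8 genes tested, where 7.05% of all 4653 genes passed, 2.99% higher and 4.06% lower. *Ivl*, with 15 counts in all, was left out by the filter on low counts. *Calm4* was at 233 and 198 CPM in the EGFP+ libraries of mouse 1 and mouse 2, at 83.0 and 58.3 in the EGFP- libraries and at 246 and 207 in viable cells. EGFP+ and EGFP- cells did not overlap, and differed by 1.64 ± 0.37 on the log2 scale (adjusted p = 0.00865 by edgeR). The call was lost without the EGFP+ library of mouse 1 (log2 fold change 1.53, edgeR adjusted p = 0.0967). When a library is left out, its population holds a lone library, which is assumed to vary like the other populations, so calls made in that way are not support for a difference.

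*Tgm3* was at 102 and 36.1 CPM in EGFP+ cells, at 7.55 and 17.5 in EGFP- cells and at 60.6 and 58.6 in viable cells. The difference of 2.46 ± 0.70 (adjusted p = 0.0352) rested on 46 against 4 counts and on mouse 1, since without the EGFP+ library of mouse 1 it was 1.45 (adjusted p = 0.55 by edgeR), and DESeq2 gave an adjusted p of 0.261. In the single cells, most transcripts of *Tgm3* had been in basal wells, which the test did not separate from Krt10-only wells.

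*Sprr1a* lay lower in EGFP+ cells, but did not pass in the fit of all libraries without a block. The gene had 5 and 5 counts in the EGFP+ libraries of mouse 1 and mouse 2, and 5 and 15 in the EGFP- libraries. It was at 13.4 and 22.6 CPM in EGFP+ cells, at 37.7 and 87.5 in EGFP- cells and at 114 and 47.3 in viable cells. EGFP+ cells were below both other populations in each mouse. The log2 difference was -1.91 ± 0.66 from EGFP- cells (adjusted p = 0.0874, and 0.03 with the mouse as a block) and -2.14 ± 0.56 from viable cells (adjusted p = 0.126, and 0.0172 with the block, by edgeR). Against EGFP- cells it was also past the threshold without the EGFP- library of mouse 1 (-2.33, adjusted p = 0.00343, with a lone EGFP- library) and without the viable library of mouse 2 (-1.88, adjusted p = 0.0484 by edgeR). Against viable cells it was made without either EGFP- library (adjusted p = 0.000512 and 0.000841) or without the viable library of mouse 2 (-2.70, adjusted p = 0.0104 by edgeR).

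**Figure D5:**
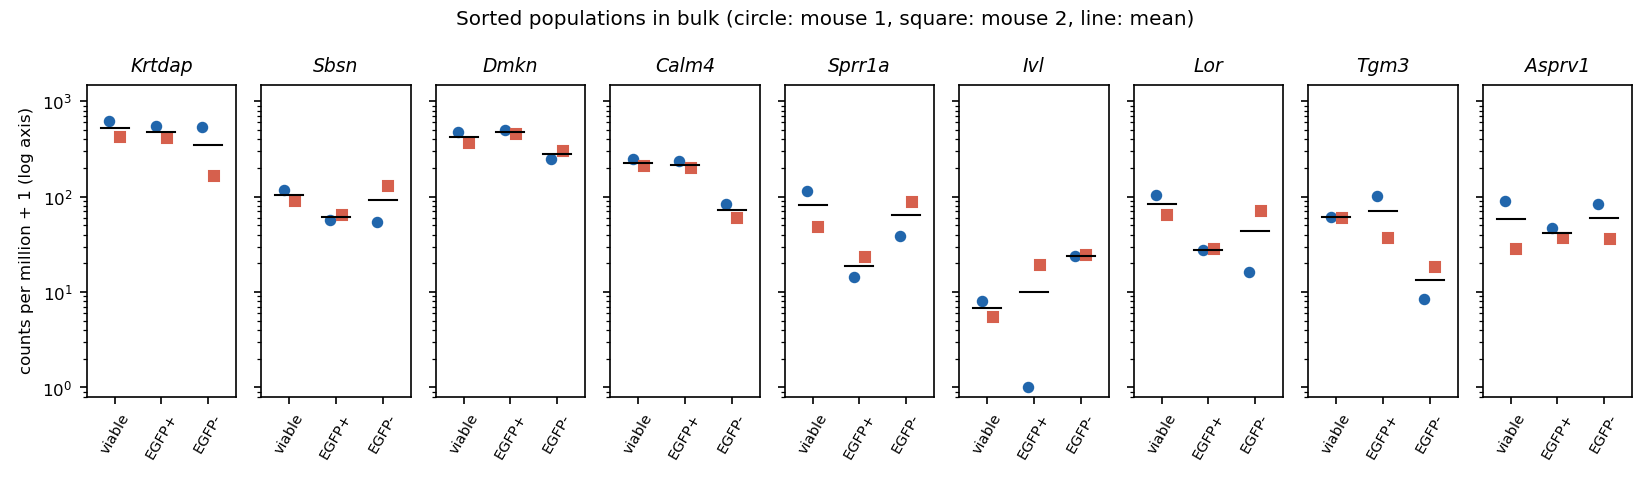
CPM + 1 (log axis) of the 9 genes listed in bulk, in viable, EGFP+ and EGFP- cells of mouse 1 (circles) and mouse 2 (squares), with a line at the mean. *Calm4* is at 198 to 233 in EGFP+ and 58.3 to 83.0 in EGFP- cells, *Sprr1a* at 13.4 to 22.6 and 37.7 to 87.5.

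*Krtdap* and *Dmkn* were abundant in every population, the ITGA6bright basal cells included. *Krtdap* was at 547 and 415 CPM in EGFP+, 536 and 163 in EGFP- and 620 and 424 in viable cells, and the EGFP- mice spread so widely that the difference of 0.50 ± 0.39 between EGFP+ and EGFP- cells had an adjusted p of 0.519 by edgeR. Against a lone EGFP- library it was 1.59 without that of mouse 1 (edgeR, adjusted p = 5.52e-05) and -0.08 without that of mouse 2, so that the choice of library set its sign. *Dmkn* was at 501 and 451 CPM in EGFP+, 249.1 and 303 in EGFP- and 477 and 367 in viable cells, with a difference of 0.78 ± 0.29 (adjusted p = 0.123), and 1.00 against the lone EGFP- library of mouse 1 (edgeR, adjusted p = 0.0178). *Sbsn* was at 56.3 and 63.1 CPM in EGFP+ and 52.8 and 128 in EGFP- cells, *Lor* at 26.8 and 27.1 against 15.1 and 70.0, and *Asprv1* at 45.6 and 36.1 against 83.0 and 35, all with overlap and with adjusted p values of 0.432 to 0.751 by edgeR.

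Against viable cells, none of the 8 genes passed in EGFP+ cells, where 0.473% of all genes did, 0.0645% higher and 0.408% lower (22 of 4653 by edgeR, 310 at an unadjusted p under 0.05, and 10 by DESeq2, none of the 8 among them). *Lor*, *Sprr1a* and *Tgm3* met the filter on low counts only with the viable libraries. *Lor* was at 103 and 63.1 CPM in viable cells and differed by -1.57 ± 0.49 in EGFP+ cells (adjusted p = 0.272), which passed without the EGFP- library of mouse 1 (adjusted p = 0.0103) or of mouse 2 (adjusted p = 0.0149 by edgeR). In EGFP- cells, *Calm4* was lower than in viable cells, at -1.69 ± 0.37 (adjusted p = 0.0186), 1 of 8 genes where 1.78% of all genes passed, 0.924% higher and 0.86% lower. That call was lost without the viable library of mouse 1 (adjusted p = 0.0963) or of mouse 2 (adjusted p = 0.0537 by edgeR), and DESeq2 gave an adjusted p of 0.0527. With the EGFP- library of mouse 1 alone, which held 2 counts of *Lor* and 1 of *Tgm3*, these were at -2.42 (adjusted p = 0.0387) and -2.96 (adjusted p = 0.0408), and with that of mouse 2 alone *Krtdap* was at -1.68 (adjusted p = 3.49e-05 by edgeR).

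The populations also differed in the keratins that divide the single cells. *Krt10* was at 1002 and 1168 CPM in EGFP+ and at 400.1 and 292 in EGFP- cells, and *Krt79* at 287 and 329 in EGFP+ and at 3895 and 1673 in EGFP- cells. The 6 upper follicle markers summed to 673 and 784 CPM in EGFP+ and 6405 and 3315 in EGFP- cells, with 5 of 6 above 0 in each. The 4 interfollicular suprabasal markers summed to 2164 and 2276 CPM in EGFP+ and 660 and 505 in EGFP- cells. The T cell markers summed to 2.48 and 4.22 against 133 and 53.1 CPM, the Langerhans cell markers to 96.6 and 92.7 against 1117 and 1169, the lower follicle markers to 1369 and 1416 against 2088 and 3347, and the sebaceous gland markers to 191 and 122 against 381 and 372. *Kcnq1ot1* and *Mir1950* came to 7445 and 8047 against 11147 and 17086 CPM. Fewer cells of a kind and less RNA per cell cannot be told apart in these pools, and the part of the markers in the differences was not tested.

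Other genes of the cornification pathway were read from 4 lists, whose counts stand beside the shares of all genes given above: 6.25% higher and 5.34% lower in Krt79-only than in Krt10-only wells, 6.68% higher in Krt10-only than in basal wells, and 8.75% higher and 8.36% lower in Krt79-only than in basal wells. Of the other envelope proteins, 23 of 30 symbols were listed in the single cells and 5 had enough transcripts. *S100a10*, *S100a11* and *Anxa1*, calcium-binding and membrane-binding proteins crosslinked into the envelope, were lower in Krt79-only than in Krt10-only wells, at -2.38 ± 0.29, -1.19 ± 0.20 and -1.11 ± 0.27 on the log2 scale (adjusted p = 2.35e-05, 0.000531 and 0.0107 by edgeR), and none of the 5 was higher. The list median was -1.11, against -0.04 over all genes. *Evpl*, the envoplakin gene, was above basal wells in both classes, by 1.74 ± 0.25 in Krt10-only wells (adjusted p = 0.000114) and by 1.77 ± 0.28 in Krt79-only wells (adjusted p = 0.000208 by edgeR). *Anxa1* rose by 1.15 ± 0.25 in Krt10-only over basal wells (adjusted p = 0.00346). *S100a10* was highest in basal wells, and fell by 0.98 in Krt10-only wells and by 3.36 in Krt79-only wells (adjusted p = 0.00528 and 3.24e-07), and *S100a11* fell by 0.72 in Krt79-only wells (adjusted p = 0.0156 by edgeR).

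Of the crosslinking enzymes, proteases and inhibitors, 8 of 14 were tested, and 5 were higher in Krt79-only than in Krt10-only wells while none was lower. *Cst6* and *Ctsd* alone of the 8 met the filter without any 1 class. *Klk5* and *Klk7* met it through Krt79-only, *Casp14* and *Spink5* through Krt10-only and *Ctsl* through basal wells, and *Cdsn* through both differentiated classes, so that the counts of this list are a description. *Cst6*, a protease inhibitor, was at 30605 ± 12354 CPM in Krt79-only wells (SD, n = 4) and at 104 ± 70.7 in Krt10-only wells (SD, n = 5). The kallikrein *Klk7*, which cuts the bonds between cornified cells, rose by 4.45 ± 0.66 (adjusted p = 0.000149), *Cdsn*, the corneodesmosin that it cuts, by 4.55 ± 0.98 (adjusted p = 0.0041), and the lysosomal protease *Ctsd* by 1.80 ± 0.29 (adjusted p = 0.000313 by edgeR). *Klk5* was the fifth. Between Krt10-only and basal wells, *Spink5*, an inhibitor of kallikreins, rose by 4.65 ± 0.60, *Klk5* by 3.77 ± 0.62 and *Casp14*, the caspase of cornification, by 1.97 ± 0.44, and *Ctsl* fell by 1.35 (adjusted p = 3.8e-05, 0.000318, 0.00462 and 0.0337 by edgeR). Between Krt79-only and basal wells, 6 of the 8 rose (*Cst6*, *Klk7*, *Cdsn*, *Klk5*, *Spink5* and *Ctsd*) and *Ctsl* fell.

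Of the genes of the lipid barrier, which make and finish the lipids around cornified cells, 5 of 15 were tested, and all 5 rose in Krt10-only over basal wells. *Acer1*, *Elovl4* and *Lipm* had no basal sum past the filter, while *Alox12e* and *Abhd5* had all 5. *Acer1*, a ceramidase, rose by 5.86 ± 0.56, *Elovl4*, which lengthens fatty acids, by 5.73 ± 0.46, the lipase *Lipm* by 3.41 ± 0.48 and the lipoxygenase *Alox12e* by 1.74 ± 0.39 (adjusted p = 1.88e-06, 2.95e-07, 6.86e-05 and 0.00456 by edgeR). In Krt79-only over basal wells 4 of the 5 rose (*Alox12e*, *Acer1*, *Elovl4* and *Lipm*). Between the classes, *Alox12e* was higher in Krt79-only wells by 2.94 ± 0.41 (adjusted p = 8.69e-05), and *Abhd5* and *Elovl4* were lower, at -1.64 ± 0.38 and -1.60 ± 0.41 (adjusted p = 0.00647 and 0.0137 by edgeR).

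Of the spinous layer genes, 10 of 14 were tested and all 10 rose in Krt10-only over basal wells. *Krt78* and *Mt4* met the filter only through Krt10-only wells and *Dsc1* only through Krt79-only wells, so that 7 of the 10 could be tested without any 1 class. *Krt1* rose by 6.12 ± 0.34 and *Fabp5*, a fatty acid binding protein, by 3.47 ± 0.36 (adjusted p = 2.57e-09 and 3.37e-06 by edgeR). *Krt78* was at 184 ± 154 CPM in Krt10-only and 1.18 ± 1.63 in basal wells, and *Mt4*, a metallothionein of squamous epithelium, at 835 ± 689 and 11.5 ± 13.6 (SD, n = 5, adjusted p = 6.49e-05 and 2.26e-05 by edgeR). In Krt79-only against basal wells 6 rose and *Krt1* fell. *Dsc1*, a desmosomal cadherin, rose by 5.16 ± 0.73 (adjusted p = 7.28e-05), and *Krt1* fell by 2.65 (adjusted p = 0.00311 by edgeR). *Fabp5* and *Lypd3* rose by 2.21 ± 0.41 and 2.19 ± 0.41 (adjusted p = 0.000959 and 0.000964 by edgeR). Against Krt10-only wells, 6 were lower and *Dsc1* was higher, by 2.29 ± 0.62 (adjusted p = 0.0192 by edgeR). *Krt1* differed by -8.77 ± 0.50 (adjusted p = 2.25e-09 by edgeR), and *Mt4* was at 2.61 ± 5.22 CPM in Krt79-only wells (SD, n = 4, adjusted p = 0.000247 by edgeR). *Krt78* was at 0 in all 4 Krt79-only sums, at least 20.6-fold lower when 3 transcripts over the class are taken as the floor.

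In bulk, where 2.99% of all genes were higher and 4.06% lower in EGFP+ than in EGFP- cells, *Casp14* and *Spink5* were higher in EGFP+ than in EGFP- cells by 1.37 ± 0.35 and 1.92 ± 0.58, and *Cst6* was lower, at -3.37 ± 0.37 (adjusted p = 0.0223, 0.0477 and 1.36e-05 by edgeR), 3 of 10 tested. The spinous genes *Krt1*, *Them5* and *Mt4* were higher by 2.03 ± 0.32, 3.16 ± 0.79 and 2.84 ± 0.80 (adjusted p = 0.000338, 0.018 and 0.0338), 3 of 8 tested, and *Alox12e* was lower, at -1.88 ± 0.34 (adjusted p = 0.00126 by edgeR), 1 of 5 tested. None of 5 other envelope genes passed. Against viable cells, *Tgm5*, another transglutaminase, was lower in EGFP+ cells, at -2.46 ± 0.48, and in EGFP- cells, at -2.62 ± 0.59 (adjusted p = 0.0193 and 0.0245 by edgeR), but it met the filter only through the viable libraries. *Cst6* and *Alox12e* were lower in EGFP+ than in viable cells, at -3.53 ± 0.36 and -1.53 ± 0.33 (adjusted p = 1.58e-05 and 0.0397 by edgeR). *Them5* and *Krt1* were lower in EGFP- than in viable cells, at -3.25 ± 0.77 and -1.81 ± 0.32 (adjusted p = 0.0329 and 0.00403 by edgeR). Between the experiments, *S100a11*, *Klk7*, *Dsc1* and *Them5* were higher in the traced mice by 1.31 ± 0.15, 1.93 ± 0.58, 1.74 ± 0.57 and 1.07 ± 0.36, and *Dsg1a* was lower, at -0.75 ± 0.18 (adjusted p = 1.36e-05, 0.0253, 0.0397, 0.0416 and 0.00621 by edgeR, over the 14 sums taken as independent, where 11.7% of all genes were higher and 9.01% lower). With 1 sum per mouse, *Klk7* (2.14, adjusted p = 0.000307) and *Dsc1* (1.74, adjusted p = 0.0136) passed in Krt79-only wells, *S100a11* had adjusted p values of 0.056 to 0.0572 in the 3 classes, and *Them5* and *Dsg1a* passed in none (edgeR). In the same fits, *Sprr4* was higher (8.67, adjusted p = 2.47e-06) and *Anxa1* lower (-1.13, adjusted p = 0.028) in Krt79-only wells of the traced mice. *Krt77* was higher in their Krt10-only wells (2.76, adjusted p = 0.0488 by edgeR).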

How the data were processed

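CEL-Seq2 bulk counts and SORT-seq plates were analysed. For bulk, the authors deposited raw counts per gene. For single cells, the authors deposited expected counts, the estimated transcripts per gene and well: barcodes corrected for repeats. Undoing that correction for 4096 barcodes gave whole numbers, within 3.57e-09. The submitters' processing notes name mm10 and BWA 0.6.2-r126. Classes were cut as described above, and sums were rounded. edgeR 4.0.16 in R 4.3.3, with TMM factors and filterByExpr, fitted population means over 6 bulk libraries, and class plus experiment over 14 sums. Quasi-likelihood p values were adjusted by Benjamini-Hochberg and called at 0.05. SE is the log2 fold change over the root of F. DESeq2 1.42.0, used by the authors, was an alternative. Tested on simulated data with a log2 fold change of 2, the bulk test recovered 78% of 200 changed genes of 4165, and the test of Krt79-only against Krt10-only wells 73.5% of 200 of 2947.

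Named genes were the 10, of each list and comparison the 4 of largest absolute log2 fold change among those past the threshold, and the 5 most correlated with the mean of the 7 tested. The list genes that passed between the experiments with 1 sum per mouse were added. Genes and lists were chosen with earlier results of these data known. Each animal gave all its own populations or classes, which pairs them by mouse: deviations from group means correlated by 0.05 to 0.09 in bulk and by -0.04 to 0.61 between classes. The 2 mice differed by more than sampling noise in each population (chi-square per degree of freedom 1.50 to 4.06). All plates use the same 384 well barcodes, so shared barcodes are not shared cells. No doublet caller was run. 5 wells passed both cuts. No columns were left out. The intervals and floors cover counting error only.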

Additional observations from a re-analysis of the deposited data

Results flagged for a closer look

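Of 25 groups of 4 *Troy*-EGFP mice tested for a mouse that stood apart (Dixon's test at 95%, critical value 0.829), 2 were picked out, and chance alone picks about 1 in 20. *Ivl* in Krt10-only wells was at 70.3 CPM without TMM scaling in *Troy*-EGFP mouse 2, from 3 transcripts, and at 0 in the other 3 mice. *Lor* in wells of no class was at 7.28 CPM in *Troy*-EGFP mouse 3, from 1 transcript, and at 0 in the other mice. Both values are at or under the floor of 3 transcripts.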

How the results depend on the processing

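Of the log2 fold changes of the 10 genes under the alternatives, 632 kept their direction and their side of the threshold, 31 passed where they had not, 33 no longer passed and 38 changed sign. The calls that changed with a library or mouse left out, with the replicate block or with 1 sum per mouse, are given beside the results, and the cause was not tested. Other settings ended these calls: in *Troy*-EGFP plates alone, *Sbsn* and *Dmkn* in Krt10-only over basal wells (edgeR adjusted p = 0.144 and 0.137) and *Calm4* in Krt79-only over basal wells (0.0691) and against Krt10-only wells (0.0504), the last also in traced plates alone (0.208), in wells of at least 2000 transcripts (0.087) and after thinning (0.0749); *Tgm3* in Krt79-only against basal wells of at least 2000 transcripts (0.0541); *Sprr1a* between the experiments after thinning (0.109), with the cut at 10 per 10000 (0.112) and with sums of 5 wells (0.147); and *Calm4* in EGFP- against viable cells fitted alone (0.0566). Other settings added calls for *Sprr1a* in EGFP+ against viable cells, *Dmkn* in Krt79-only against both other classes and *Tgm3* between the experiments. Every change of sign was of a value that had not passed the test. Counts of calls over all genes moved as follows. DESeq2 gave 141, 10 and 33 genes for EGFP+ against EGFP- cells, EGFP+ against viable cells and EGFP- against viable cells. The 2 populations alone gave 151, 66 and 38, and leaving out a library gave 131 to 751, 7 to 124 and 27 to 464. Without the filter on low counts the comparisons with viable cells gave 43 and 133, and with the replicate block 49 and 163. For Krt79-only against Krt10-only, Krt10-only against basal and Krt79-only against basal wells, the replicate block gave 785, 898 and 1032 genes (of 4663 tested), *Troy*-EGFP plates alone 79, 212 and 153, thinning to 1000 transcripts 122, 104 and 177, and leaving out a mouse 251 to 731, 325 to 805 and 381 to 990, the highest in each case without *Troy*-EGFP mouse 2. No filter gave 782 for Krt10-only against basal wells. Between the experiments, sums of at least 5 wells gave 480, no filter 1297, thinning 170, 1 sum per mouse 25 in basal, 39 in Krt10-only and 221 in Krt79-only wells (a fit added after the data had been seen), and leaving out a mouse 318 to 1511, and the interaction gave 4 with the replicate block. The replicate block changed no other call of the 10 genes than those given in the report. Under DESeq2, which filters no gene before the fit, the median of all genes was -0.35 between the experiments, 0.20 between Krt79-only and basal wells and -0.40 in the interaction, against 0.00, -0.08 and 0.23 by edgeR. Leaving out *Troy*-EGFP mouse 1 left the tests as they were, since it gave no sum of 10 wells.

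Signs changed in these cases. Leaving out a library in turn, EGFP+ against EGFP- cells ran from -0.077 to 1.59 for *Krtdap*, -1.10 to 0.22 for *Sbsn*, -1.35 to 0.88 for *Lor* and -0.92 to 0.27 for *Asprv1*. EGFP+ against viable cells ran from -0.35 to 0.17 for *Krtdap*, -0.18 to 0.050 for *Calm4*, -0.71 to 0.77 for *Tgm3* and -1.08 to 0.60 for *Asprv1*. EGFP- against viable cells ran from -1.68 to 0.0061 for *Krtdap*, -0.99 to 0.31 for *Sbsn*, -1.04 to 0.40 for *Sprr1a* and -0.67 to 1.00 for *Asprv1*, which was at -0.032 by DESeq2 and -0.093 without the filter. *Sbsn* was at -0.63 between Krt79-only and Krt10-only wells in traced plates alone. Between Krt10-only and basal wells, *Sprr1a* was at -0.18 in traced plates alone, and *Ivl* at -1.13 in *Troy*-EGFP plates alone, -0.44 in wells of at least 2000 transcripts and -0.36 to 0.59 without a mouse. Between the experiments, *Krtdap* was at 0.013 with the cut at 10 per 10000, 0.19 in wells of at least 2000 transcripts, 0.45 in Krt10-only wells alone and -0.53 to 0.26 without a mouse, *Sbsn* at -0.65 in Krt79-only wells alone, and *Ivl* at 0.061 in wells of at least 2000 transcripts and -0.65 to 0.036 without a mouse. In the interaction, *Dmkn* was at -0.013 by DESeq2 and -0.48 with the replicate block, and *Tgm3* at -1.45 by DESeq2. Thinning lowered the share of Krt10-only wells to 67.5% for *Krtdap*, 28.7% for *Sbsn*, 41.4% for *Dmkn*, 65.6% for *Calm4*, 5.10% for *Sprr1a*, 0% for *Lor*, 2.55% for *Tgm3* and 0.637% for *Asprv1*. In Krt79-only wells it lowered the share to 42.6% for *Sbsn*, 32.7% for *Dmkn*, 40.6% for *Calm4*, 58.4% for *Sprr1a*, 16.8% for *Ivl*, 0% for *Lor* and *Tgm3* and 4.95% for *Asprv1*. Counting error is largest for *Lor*, *Tgm1*, *Ivl*, *Tgm3* and *Asprv1*, each with at most 149 transcripts in the kept wells.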

Other observations

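The wells left out for having 100 to 1000 transcripts, 710 in number, held the same genes at low counts. *Krtdap* was found in 75 of them with 159 transcripts, *Sprr1a* in 35 with 52.0 transcripts, and *Tgm3* in 2 with 2 transcripts. *Lor* gave 3 transcripts in 1 of these wells, against 5 in the 1109 kept wells. *Ivl* gave 3 transcripts and *Tgm1* none.

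The 5 wells that passed both keratin cuts, 3 of them of *Troy*-EGFP mouse 3, held *Krtdap* in 4, *Calm4* in 4, *Sbsn* in 4 and *Dmkn* in 3. *Sprr1a* was found in 1 of them and *Ivl* in none. They were too few for a sum, and whether they hold more than 1 cell was not tested.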
